A study of Mus musculus with 7 samples.

Results

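A set of 8 genes that act downstream of adenosine receptors in the cyclic AMP (cAMP) pathway was followed by RNA-seq in CD4+CD25+ cells that were sorted from the liver of mice. They are the transcription factor genes Crem and Creb1, the protein kinase A (PKA) subunit genes Prkaca and Prkar1a, and the phosphodiesterase genes Pde3b, Pde4b, Pde4d and Pde7a. They were taken by symbol, and all 8 were found among 53465 gene IDs of the counts table. All 8 also passed the low-count filter that left 14784 genes for testing. The 2 libraries named WT_NCD came from C57BL/6 wild type mice fed a control diet. The 2 named WT_MCD came from wild type mice fed a diet without methionine and choline, and the 3 named KO_MCD from CD73 knockout mice fed that deficient diet. Feeding lasted 4 weeks. Knockout mice on control food were not analysed here. The labels do not say how CD73 was deleted, how old the mice were, or whether a library came from 1 animal or several, so a p-value reflects no more than how far these libraries scatter, and that scatter may be technical.

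CD73 is the cell surface enzyme that turns extracellular AMP into adenosine. Adenosine acts on T cells mainly through the adenosine receptor encoded by Adora2a, which couples to the stimulatory G protein and so to adenylyl cyclase. The cAMP that is made releases the catalytic subunits of PKA from their regulatory subunits, and PKA phosphorylates CREB1 and CREM, which bind the cAMP response element (CRE) of target genes. Phosphodiesterases end the signal by breaking down cAMP, and in T cells cAMP restrains receptor signalling.

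The promoter windows of 3 members are shown because letters of the CRE, the site that CREB1 and CREM bind, can be read in them. Only that of Prkar1a holds a complete CRE, and those of Prkaca and Pde4b hold the shorter letters alone. RefSeq starts on GRCm38.p6 were found for 5 of the 8 members, Creb1, Pde4b, Pde4d, Prkaca and Prkar1a, with 14 windows of 300 bases in all (250 before the start and 50 from it on). The letters TGACGTCA, a complete palindromic CRE, occurred in 2 of the 14 windows and in 1.79% of 32851 RefSeq promoter windows of the same length. The 2 are overlapping windows of Prkar1a that hold the same site. The shorter letters TGACG, read on both strands and contained in the complete CRE, occurred in 5 of the 14 windows and in 20.8% of all windows. The same 2 overlapping windows of Prkar1a are among the 5. The windows below are printed 5′ to 3′ on the gene's strand, and capitals mark TGACG or its reverse complement CGTCA.
Prkar1a, chr11:109650699-109650998, plus strand: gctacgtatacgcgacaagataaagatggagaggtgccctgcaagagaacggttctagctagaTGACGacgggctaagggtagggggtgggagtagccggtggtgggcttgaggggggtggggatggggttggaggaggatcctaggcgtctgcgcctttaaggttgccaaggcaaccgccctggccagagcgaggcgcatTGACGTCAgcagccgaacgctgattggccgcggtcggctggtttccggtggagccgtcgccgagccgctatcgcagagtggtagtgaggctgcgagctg
Prkaca, chr8:83972728-83973027, plus strand: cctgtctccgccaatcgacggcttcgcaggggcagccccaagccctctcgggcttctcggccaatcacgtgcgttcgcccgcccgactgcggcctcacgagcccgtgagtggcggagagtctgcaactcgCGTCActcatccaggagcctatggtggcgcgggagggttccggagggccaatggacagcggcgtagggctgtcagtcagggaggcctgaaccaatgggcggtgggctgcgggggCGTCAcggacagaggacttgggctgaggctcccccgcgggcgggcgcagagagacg
Pde4b, chr4:102421305-102421604, plus strand: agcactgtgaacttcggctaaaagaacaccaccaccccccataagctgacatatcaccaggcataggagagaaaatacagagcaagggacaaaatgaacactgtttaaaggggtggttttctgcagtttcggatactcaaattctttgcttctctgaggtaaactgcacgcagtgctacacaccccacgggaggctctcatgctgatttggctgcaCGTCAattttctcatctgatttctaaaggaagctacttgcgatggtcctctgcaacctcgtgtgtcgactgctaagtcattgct
In the Prkar1a window the complete CRE began 49 bases before the start, and a further TGACG began 187 bases before it. In the Prkaca window the capitals began 120 and 6 bases before the start, and in the Pde4b window 34 bases before it. Each is 1 of several annotated starts (6 for Prkar1a, 2 for Prkaca and 4 for Pde4b), and counts per gene do not tell which start was used. A match in the letters is a description of the window and not evidence of binding.

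Library totals ran from 19731501 to 24398738 counts, and 3 counts, the limit that 0 counts allow, come to 0.123 to 0.152 CPM (counting error only). CPM are read counts scaled to library size, here with TMM factors. Nt5e, the gene of CD73, had 243 and 241 CPM in the WT_NCD libraries, 177 and 87.6 in the WT_MCD libraries and 5.88, 14.5 and 6.43 in the KO_MCD libraries. All 3 knockout libraries were below the 4 wild type libraries. All 10 T cell markers and all 6 Treg markers were counted in every library, with sums of 5290 to 13664 CPM and 735 to 2272 CPM. RNA of other cells was present too. The 11 macrophage and Kupffer cell markers, of which 10 or 11 were counted per library, summed to 1159 and 10742 CPM in the WT_NCD libraries, 2397 and 32533 in the WT_MCD libraries and 7355 to 12664 in the KO_MCD libraries. Timd4 was the macrophage marker at 0, in KO_MCD replicates 1 and 2. The NK markers Ncr1 and Klre1 were at 0 in both WT_NCD libraries, and the 6 NK markers summed to 75.2 and 78.0 CPM there, 218 and 381 CPM in WT_MCD and 155 to 241 CPM in KO_MCD. The 6 dendritic cell markers, all counted in every library, summed to 316 and 229 CPM in WT_NCD and to 575 to 1466 CPM in the 5 libraries on the deficient diet, without overlap. The 4 endothelial markers ran the other way, with 208 and 229 CPM against 67.0 to 129 CPM (Kdr at 0 in WT_NCD replicate 1, Kdr and Clec4g in KO_MCD replicate 2). Prkaca and, among the genes named below, Pkig, Pde4a, Crtc2, Junb, Adora2b, Ptger4 and Epcam separate the same libraries as the NK and dendritic markers. Akap7 separates them in the other direction, as the endothelial markers do. Pkig, Pde4a, Crtc2, Junb, Adora2b and Akap7 were named by a rule that asked for groups without overlap. Epcam was named as the gene most like Prkaca, and Ptger4 after its values were seen. Their separation thus follows in part from how they were named. Of all tested genes, 31.6% did not overlap in WT_MCD against WT_NCD and 26.1% in KO_MCD against WT_NCD. The part of these cells in the levels of these genes was not tested. The members are used by many cell types, and in bulk RNA fewer cells of a type and less RNA per cell cannot be told apart.

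The members spanned a wide range of levels. Per kb of annotated exon, the scale on which genes can be compared with each other, Prkar1a stood first at 317 ± 74.2 CPM per kb (SD over 7 libraries), followed by Crem at 39.3 ± 17.01 and Pde4b at 29.2 ± 12.9. Creb1 had 8.91 ± 1.61 CPM per kb, Prkaca 3.04 ± 1.52, Pde7a 2.25 ± 1.41, Pde3b 2.0 ± 1.03 and Pde4d 1.56 ± 1.24. Prkar1a was above Crem, Pde4b above Creb1, and Creb1 above Prkaca in 7 of 7 libraries each, with ranges that did not overlap. The other neighbours in this order could not be separated: Crem was above Pde4b in 5 of 7 libraries, Prkaca above Pde7a in 4, Pde7a above Pde3b in 4, and Pde3b above Pde4d in 6, and their ranges overlapped. Among the members Creb1 and Prkar1a varied least between libraries (coefficients of variation 18.0% and 23.4% over all 7), and Pde4d varied most (79.3%). The median over the 8 members was 47.2%, between 36.1% over the 8247 tested genes that averaged at least 10 CPM, as all members but Prkaca did (7.57 CPM), and 52.5% over all tested genes.

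**Figure D1:**
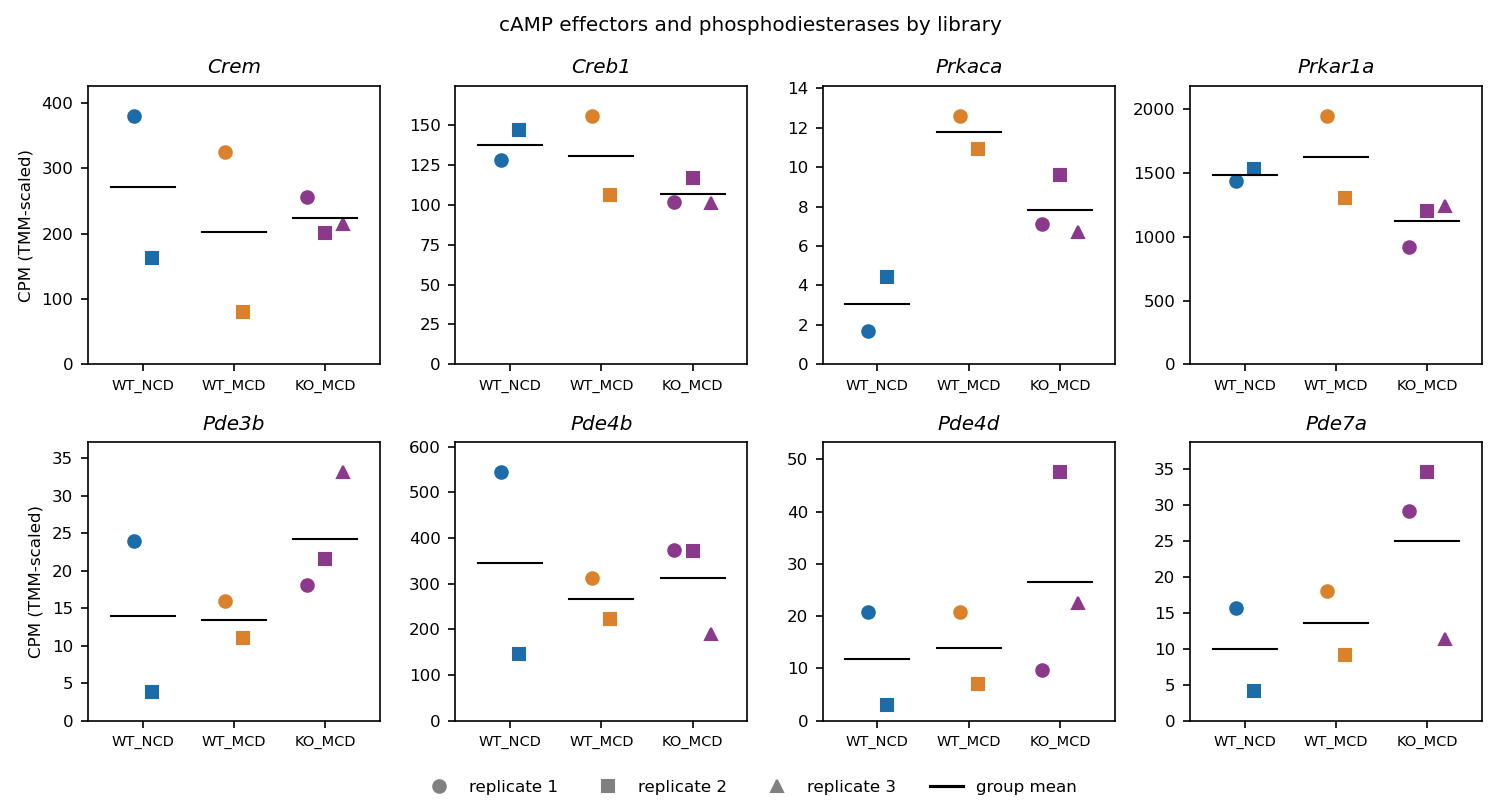
Level of each of the 8 genes in TMM-scaled CPM (vertical axes, linear from 0, 1 scale per gene) in the 3 groups, with 1 point per library, shaped by replicate number, and a line at each group mean. Prkaca is the member whose WT_NCD libraries (1.67 and 4.42 CPM) lie below all 5 libraries on the deficient diet (6.72 to 12.6 CPM), while WT_NCD replicate 2 is the lowest library for all 4 phosphodiesterases.

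WT_MCD against WT_NCD asks how the sorted cells differ with the diet. Prkaca, the alpha catalytic subunit of PKA, was the member with the largest difference, at 11.8 ± 1.19 CPM in WT_MCD and 3.05 ± 1.95 CPM in WT_NCD (SD, n = 2 each), a 3.85-fold higher level whose 95% interval ran from 0.964-fold to 15.4-fold. The other 7 members had log2 fold changes between -0.42 and 0.45. None of the 8 passed the threshold (edgeR quasi-likelihood test, Benjamini-Hochberg adjusted p over all genes, 0.808 to 1), and 0 of the 14784 tested genes (0%) did so. At an unadjusted p under 0.05 edgeR took 0 members beside 6.00% of all tested genes. DESeq2 and limma voom took 1 member each, beside 1325 and 905 of all 14784 tested genes. Prkaca was the only member whose groups did not overlap, in a comparison where 31.6% of all tested genes had groups apart (16.8% higher and 14.8% lower). There were 4 members higher and 4 lower, with a median log2 fold change of 0.04, equal to the median of 0.04 over all tested genes.

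With KO_MCD set against WT_MCD, the question is what the absence of CD73 does on the deficient diet. The phosphodiesterases Pde3b, Pde4d and Pde7a had the largest log2 fold changes of the members, 0.85 (SE 0.78), 0.94 (SE 1.005) and 0.88 (SE 0.77), all higher in the knockout. Prkaca (-0.59, SE 0.74), Prkar1a (-0.54, SE 0.27) and Creb1 (-0.29, SE 0.28) stood lower. None passed the threshold (edgeR adjusted p = 1 for each of the 8), as for all tested genes (0%), and at an unadjusted p under 0.05 edgeR, DESeq2 and limma voom each took 0 members. By edgeR 3.25% of all tested genes had such a p, 1.20% higher and 2.04% lower. Without overlap between the groups, Pde3b was higher (8.37% of tested genes were), and Prkaca and Prkar1a were lower (9.66% of tested genes were), where 18.0% did not overlap in either direction. The median log2 fold change was 0.18 over the 8 members and -0.03 over all tested genes.

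KO_MCD and WT_NCD are separated by diet as well as by genotype, and these cannot be told apart here. The comparison shares libraries with both others. Pde7a, Prkaca and Pde4d had log2 fold changes of 1.34 (SE 0.79), 1.35 (SE 0.79) and 1.16 (SE 1.01). None of the 8 members passed (edgeR adjusted p 0.632 to 0.987; 0% of all tested genes), and edgeR, DESeq2 and limma voom each took 0 at an unadjusted p under 0.05. By edgeR 8.97% of all tested genes had such a p, 4.72% higher and 4.25% lower. Prkaca was higher without overlap, as were 13.4% of tested genes, and Creb1 and Prkar1a were lower without overlap, as were 12.8% (26.1% in either direction). With WT_NCD replicate 1 left out, the log2 fold changes of Pde7a, Prkaca and Pde4d were 2.58, 0.82 and 3.14. With WT_NCD replicate 2 left out, they were 0.68, 2.23 and 0.36.

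**Figure D2:**
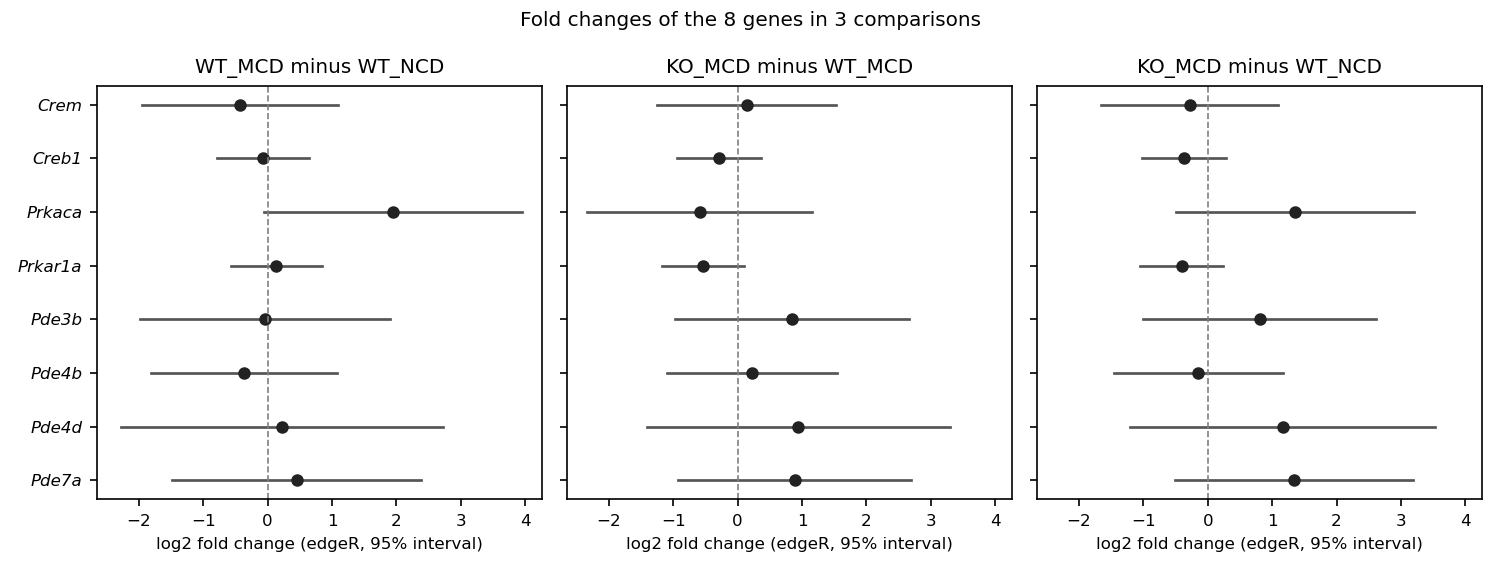
Fitted log2 fold changes (points) of the 8 genes with their 95% intervals (lines, edgeR, all 7 libraries in the fit) in the 3 comparisons, with a dashed line at 0. Every interval includes 0, the nearest to excluding it being Prkaca in WT_MCD minus WT_NCD (-0.05 to 3.94).

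The intervals show which differences the libraries could have hidden. For Creb1 and Prkar1a, the steadiest members, the intervals were narrow. The interval of Creb1 ran from -0.79 to 0.65 (log2) in WT_MCD against WT_NCD and from -0.95 to 0.36 in KO_MCD against WT_MCD. For Pde4d it ran from -2.28 to 2.73 and from -1.41 to 3.29, so that even 4-fold differences in either direction lay inside the first. In simulated data with the spread of these libraries, 0% of genes changed 2-fold and 2% of genes changed 4-fold were recovered in WT_MCD against WT_NCD (13821 genes run), and 0% and 4% in KO_MCD against WT_MCD (13842 genes run). In KO_MCD against WT_NCD these shares were 0% and 12% (13846 genes run). The shares are over all changed genes and may not hold for members as steady as Creb1 and Prkar1a. For the more variable members, a difference of the size seen was thus mostly not detectable with these libraries.

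Among the PKA genes, Prkar1a (ENSMUSG00000020612, chromosome 11, 109649405 to 109669656, GRCm38, plus strand) encodes the type I alpha regulatory subunit, which holds the catalytic subunits inactive until cAMP binds. It had 1438 and 1532 CPM in the WT_NCD libraries, 1949 and 1307 in the WT_MCD libraries and 919.9, 1203 and 1243 in the KO_MCD libraries. The knockout libraries were the 3 lowest of the 7, below WT_MCD replicate 2 by a small margin. The level in KO_MCD was 0.689-fold that in WT_MCD, with a 95% interval of 0.442-fold to 1.07-fold. Of the 4 regulatory subunit genes, Prkar1a made up 97.6% to 99.9% of the summed CPM per kb in every library. Prkar2a, the type II alpha regulatory subunit, had 2.83 and 10.3 CPM in the WT_NCD libraries, 38.0 and 29.8 in the WT_MCD libraries and 8.60, 19.7 and 12.4 in the KO_MCD libraries. Both WT_MCD libraries were the highest, and in KO_MCD against WT_MCD the groups did not overlap (log2 fold change -1.32, SE 0.66, edgeR adjusted p = 1).

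Prkaca (ENSMUSG00000005469, chromosome 8, 83972993 to 83996443, plus strand) had 1.67 and 4.42 CPM in the WT_NCD libraries, 12.6 and 10.9 in the WT_MCD libraries and 7.09, 9.60 and 6.72 in the KO_MCD libraries. The 3 groups did not overlap at all, with the knockout between the wild type groups. These levels rest on 33 and 103 counts in WT_NCD and on 141 to 271 counts in the other 5 libraries. Most catalytic subunit RNA came from Prkacb, the beta subunit, with 199.9 and 562 CPM in the WT_NCD libraries, 224 and 231 in the WT_MCD libraries and 205 to 284 in the KO_MCD libraries. The share of Prkaca in the summed CPM per kb of both catalytic genes, a quantity that library scaling does not touch, was 2.86% and 2.70% in WT_NCD, 16.5% and 14.3% in WT_MCD, and 10.5%, 14.2% and 7.70% in KO_MCD. These shares did not overlap between any groups either, but KO_MCD replicate 2 (14.17%) lay just below WT_MCD replicate 2 (14.26%). In WT_NCD replicate 2 the low share goes with the high level of Prkacb (562 CPM). A two-sided exact permutation test gave 0.333 for WT_MCD against WT_NCD, the smallest p that 2 against 2 libraries allow, 0.1 for KO_MCD against WT_NCD, the smallest that 3 against 2 allow, and 0.2 for KO_MCD against WT_MCD.

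GC content moved with this result. The longest transcript of Prkaca has 54.9% GC and lay in the ninth of 10 equal groups of tested genes ordered by GC. The median log2 fold change of WT_MCD against WT_NCD was -0.12 in the lowest of these groups, 0.20 in the ninth and 0.41 in the highest, against 1.95 for Prkaca. The part of GC content in the difference of Prkaca was not tested. Without WT_NCD replicate 1 the log2 fold change of Prkaca was 1.41, and without WT_NCD replicate 2 it was 2.82. In KO_MCD against WT_NCD it was 0.82 and 2.23 in the same order.

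Of the PKA inhibitors, small proteins that block the catalytic subunit, Pkig had 4.96 and 1.89 CPM in the WT_NCD libraries, 16.6 and 22.8 in the WT_MCD libraries and 27.7, 13.7 and 22.9 in the KO_MCD libraries. Both WT_NCD libraries were below the other 5. Of the PKA list Pkig had the smallest unadjusted p in WT_MCD against WT_NCD (log2 fold change 2.53, SE 0.70) and in KO_MCD against WT_NCD (2.64, SE 0.68), with edgeR adjusted p = 0.712 and 0.373. DESeq2 called Pkig in both comparisons (adjusted p = 0.0475 and 0.00676), where it called 306 and 562 of all 14784 tested genes. The log2 fold changes of Pkig were 3.38 and 3.50 without WT_NCD replicate 1, and 1.998 and 2.11 without WT_NCD replicate 2. The longest transcript of Pkig has 54.5% GC, in the eighth of the 10 groups by GC, whose median in WT_MCD against WT_NCD was 0.19, and the part of GC was not tested. Pkib had 16.6 and 3.18 CPM in the WT_NCD libraries, 12.1 and 87.3 in the WT_MCD libraries and 32.4 to 51.1 in the KO_MCD libraries. Its highest library, WT_MCD replicate 2, was also the one with the most macrophage marker RNA, whose part in the level of Pkib was not tested. Of the 8 tested genes among the 9 PKA subunits and inhibitors, 7 stood higher in WT_MCD than in WT_NCD, 4 of them without overlap (16.8% of tested genes were higher so), with a median log2 fold change of 2.14 beside 0.04 over all tested genes. This median was 1.22 without WT_MCD replicate 2 and 1.57 without WT_NCD replicate 1. Among the 4, Prkar2b had 0 counts in both WT_NCD libraries and 52 and 120 counts in the WT_MCD libraries. It passed the low-count filter only through libraries on the deficient diet, so it could only stand higher there. In KO_MCD against WT_MCD, 3 of the 8 tested genes stood higher and 5 lower, 4 of these without overlap beside 9.66% of tested genes. The median was -0.38 beside -0.03, and none passed the threshold in either comparison.

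**Figure D3:**
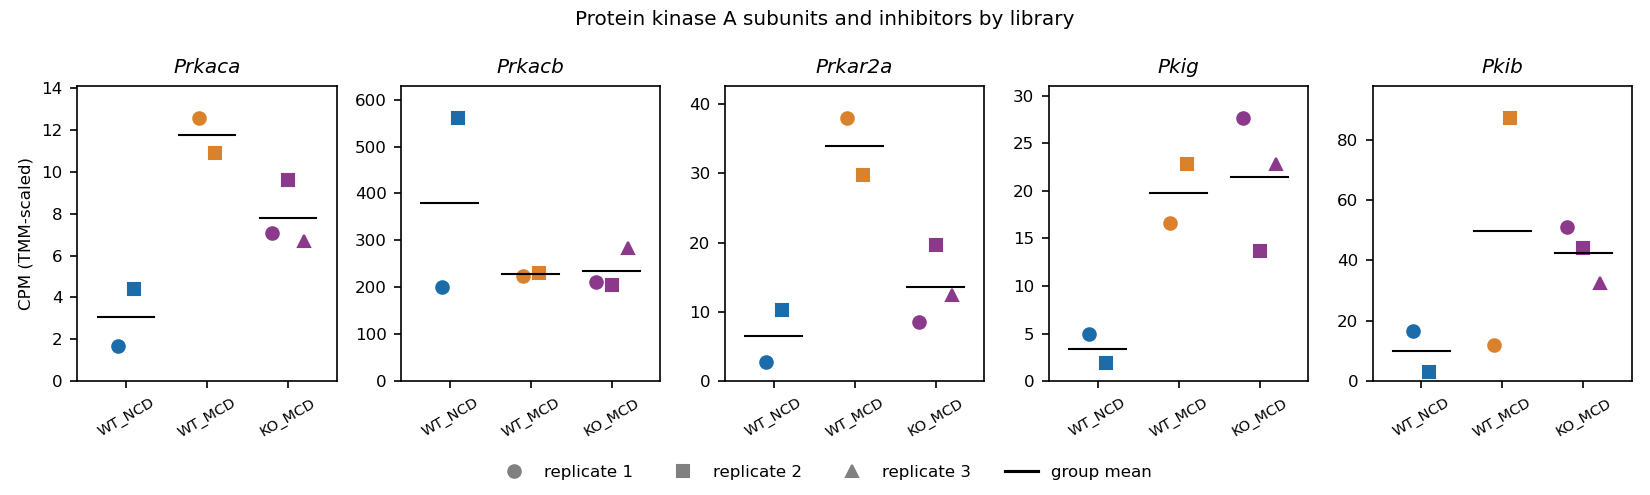
Levels of 2 PKA catalytic subunit genes (Prkaca, Prkacb), the regulatory subunit gene Prkar2a and 2 PKA inhibitor genes (Pkig, Pkib) in TMM-scaled CPM (vertical axes, linear from 0, 1 scale per gene), with 1 point per library and a line at each group mean. Prkaca and Pkig lie lower in both WT_NCD libraries than in all 5 libraries on the deficient diet, and Prkacb reaches its highest level, 562 CPM, in WT_NCD replicate 2.

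Pde4b (ENSMUSG00000028525, chromosome 4, 102087543 to 102607259, plus strand) encodes a cAMP-specific phosphodiesterase that is abundant in leukocytes. It had 544 and 146 CPM in the WT_NCD libraries, 312 and 223 in the WT_MCD libraries and 373, 372 and 189 in the KO_MCD libraries. The 2 WT_NCD libraries held both the highest and the lowest value of all 7, so the groups overlapped fully. Its log2 fold change was -0.37 (SE 0.62) in WT_MCD against WT_NCD and 0.22 (SE 0.57) in KO_MCD against WT_MCD. In WT_MCD against WT_NCD it was 0.88 without WT_NCD replicate 1 and -1.02 without WT_NCD replicate 2.

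Pde3b (ENSMUSG00000030671, chromosome 7, 114415281 to 114539251, plus strand) encodes a phosphodiesterase that also binds cGMP and whose gene is known to be repressed by Foxp3. It had 23.9 and 3.87 CPM in the WT_NCD libraries, 15.99 and 10.97 in the WT_MCD libraries and 18.1, 21.6 and 33.2 in the KO_MCD libraries. All 3 knockout libraries lay above both WT_MCD libraries, and the WT_NCD libraries were the lowest and the second highest of all 7. Pde7a (ENSMUSG00000069094, chromosome 3, 19223108 to 19311322, minus strand), a high-affinity cAMP phosphodiesterase of T cells, had 15.6 and 4.17 CPM in the WT_NCD libraries, 18.0 and 9.08 in the WT_MCD libraries and 29.1, 34.6 and 11.4 in the KO_MCD libraries. KO_MCD replicates 1 and 2 were the highest of all 7, and replicate 3 lay between the WT_MCD libraries. The 6 B and plasma cell markers summed to 823 and 700 CPM in KO_MCD replicates 1 and 2 (Jchain at 0 in both) and to 332 CPM in replicate 3. In the wild type libraries they summed to 120 to 430 CPM. The part of these cells in the level of Pde7a was not tested. Pde4d (ENSMUSG00000021699, chromosome 13, 108449948 to 109953461, plus strand), a further cAMP-specific enzyme, had 20.7 and 3.01 CPM in the WT_NCD libraries, 20.7 and 6.93 in the WT_MCD libraries and 9.67, 47.6 and 22.4 in the KO_MCD libraries. Its mean in the knockout rests on replicate 2, and the log2 fold change of KO_MCD against WT_MCD was 0.94 with it and 0.22 without it.

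WT_NCD replicate 2 was the lowest library for all 4 phosphodiesterases, and for 16.9% of the 8247 tested genes that averaged at least 10 CPM. It was also the lowest for 9 of the 11 tested genes with known CRE-driven induction, among them Fos, Nr4a1 and Areg. It had the least macrophage marker RNA (1159 CPM) and the most T cell marker RNA (13664 CPM). The part of cell makeup in these levels was not tested. Without WT_NCD replicate 1, which leaves this library alone in its group, the log2 fold changes of Pde3b, Pde4d and Pde7a in KO_MCD against WT_NCD were 2.65, 3.14 and 2.58. Without WT_NCD replicate 2 they were 0.03, 0.36 and 0.68.

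Over the 16 genes that encode cAMP phosphodiesterases, the summed level ran from 16.7 to 62.4 CPM per kb between libraries, both ends being WT_NCD libraries. Pde4b gave most of it in every library: 82.5% and 82.4% in WT_NCD, 77.4% and 71.9% in WT_MCD, and 72.9%, 63.1% and 64.5% in KO_MCD. The WT_NCD libraries were highest, and KO_MCD replicate 1 lay between the WT_MCD libraries. The two-sided exact permutation p was 0.333 for WT_MCD against WT_NCD, 0.3 for KO_MCD against WT_MCD and 0.1 for KO_MCD against WT_NCD, where the first and the last are the smallest these designs allow. The mean share of Pde7a was 3.22% in WT_NCD, 5.05% in WT_MCD and 7.02% in KO_MCD, and its libraries ran from 3.21% to 7.997%. Pde3b had 2.53% to 4.60% in 6 libraries and 13.1% in KO_MCD replicate 3. Pde4a had the smallest unadjusted p of the other phosphodiesterases that averaged at least 5 CPM with groups apart, with log2 fold changes of 1.15 (SE 0.71) in WT_MCD against WT_NCD and 1.35 (SE 0.67) in KO_MCD against WT_NCD.

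**Figure D4:**
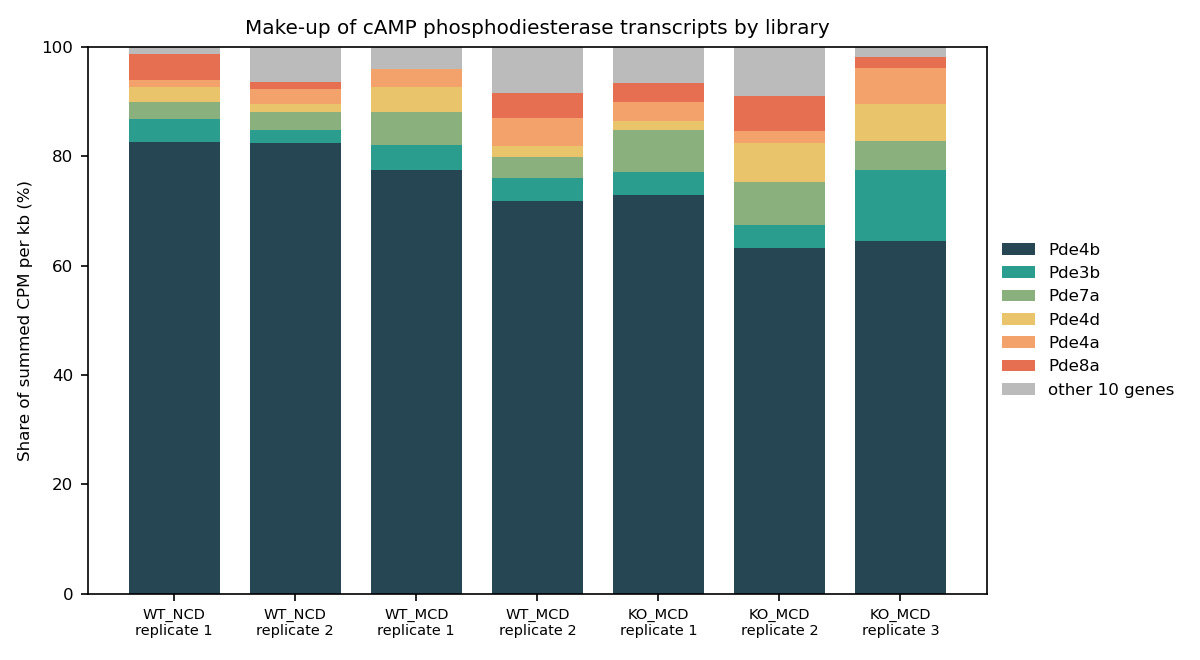
Share of each gene in the summed CPM per kb of 16 cAMP phosphodiesterase genes (vertical axis, percent, stacked to 100) in each of the 7 libraries. Pde4b takes from 63.1% to 82.5%, and the highest shares are those of the 2 WT_NCD libraries.

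Of the 11 tested genes among the 16 phosphodiesterases, members included, 10 stood higher and 1 lower in KO_MCD than in WT_MCD, with a median log2 fold change of 0.88 beside -0.03 over all tested genes. The groups did not overlap for 2 of them, both higher, beside 8.37% of tested genes, and none passed the threshold. Without KO_MCD replicate 2 the counts were 8 and 3 (median 0.35), and the median was 0.55 or 0.47 with the first or the second WT_MCD library left out. In WT_MCD against WT_NCD 5 stood higher and 6 lower (median -0.04). These were 9 and 2 without WT_NCD replicate 1 (median 1.70), and 4 and 7 without WT_NCD replicate 2 (median -0.58).

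Crem (ENSMUSG00000063889, chromosome 18, 3266048 to 3337748, minus strand) gives rise to activators and, from an internal promoter, to the cAMP-inducible repressor ICER, which counts per gene cannot separate. It had 381 and 163 CPM in the WT_NCD libraries, 325 and 80.2 in the WT_MCD libraries and 256, 201 and 214 in the KO_MCD libraries. The wild type groups each held a high and a low library, and all 3 knockout libraries lay between the extremes of WT_MCD. The log2 fold change of KO_MCD against WT_MCD was 0.14 (SE 0.59), with 1.52 without WT_MCD replicate 1 and -0.54 without WT_MCD replicate 2. WT_MCD replicate 2 had the lowest Crem and the least T cell marker RNA (5290 CPM), and the part of the latter was not tested. Crem shares 8.01% of its exon length with Gm6225 on the other strand, and reads there are uncertain because no source used here says whether counting used the strand. Creb1 (ENSMUSG00000025958, chromosome 1, 64532645 to 64604548, plus strand), which encodes CREB itself, had 128 and 147 CPM in the WT_NCD libraries, 156 and 106 in the WT_MCD libraries and 102, 117 and 101 in the KO_MCD libraries. Its knockout libraries lay below both WT_NCD libraries and overlapped WT_MCD, and the log2 fold change of KO_MCD against WT_NCD was -0.37 (SE 0.28). Crem made up 48.4% to 81.8% of the summed CPM per kb of Crem, Creb1 and Atf1.

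Of the 11 CREB family, coactivator and salt-inducible kinase genes, all tested, 8 stood higher and 3 lower in WT_MCD than in WT_NCD (median log2 fold change 0.26), and 5 higher and 6 lower in KO_MCD than in WT_MCD (median -0.06). Crtc2, a coactivator of CREB, had 45.5 and 64.6 CPM in WT_NCD and 89.8 to 105 CPM in all 5 libraries on the deficient diet. Its log2 fold changes against WT_NCD were 0.81 (SE 0.31) in WT_MCD and 0.85 (SE 0.29) in KO_MCD, with edgeR adjusted p = 0.803 and 0.491. Its transcript has 54.5% GC, in the eighth of the 10 groups, whose median was 0.19 in WT_MCD against WT_NCD. Sik1, a kinase that cAMP induces and that keeps these coactivators out of the nucleus, had 74.0 and 28.6 CPM in the WT_MCD libraries and 82.6, 139 and 91.9 in the KO_MCD libraries (log2 fold change 1.03, SE 0.68, edgeR adjusted p = 1). Leaving out WT_MCD replicate 1 gave 1.91, and leaving out WT_MCD replicate 2 gave 0.50. The groups did not overlap.

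Of the 12 genes with CRE-driven induction 11 were tested, and 9 stood higher and 2 lower in KO_MCD than in WT_MCD (median 0.52), 8 higher and 3 lower in WT_MCD than in WT_NCD (median 0.33). All 11 stood higher in KO_MCD than in WT_NCD (median 1.02 beside 0.06 over all tested genes), 3 of them without overlap (13.4% of tested genes were higher so) and none past the threshold. These counts rest on WT_NCD replicate 2. Without it 7 stood higher and 4 lower in KO_MCD (median 0.23 beside 0.17), the 4 being Fos, Dusp1, Rgs2 and Areg, and in WT_MCD against WT_NCD 3 stood higher and 8 lower (median -0.21). Per1, a clock gene, had 50.9 and 18.4 CPM in the WT_MCD libraries and 104, 261 and 66.1 in the KO_MCD libraries (log2 fold change 2.05, SE 0.93, edgeR adjusted p = 1). Leaving out KO_MCD replicate 2 gave 1.29, and leaving out WT_MCD replicate 1 gave 3.01. Junb, an AP-1 factor, had 2384 and 1161 CPM in WT_NCD and 2888 to 5605 CPM on the deficient diet. Its log2 fold changes were 0.95 (SE 0.45) in WT_MCD and 1.17 (SE 0.43) in KO_MCD against WT_NCD, with 1.56 and 1.78 without WT_NCD replicate 1 and 0.53 and 0.74 without WT_NCD replicate 2.

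Upstream of cAMP, Adora2a, that adenosine receptor, had 215 and 138 CPM in the WT_NCD libraries, 203 and 115 in the WT_MCD libraries and 161, 206 and 133 in the KO_MCD libraries, so its groups overlapped throughout. Adora2b, a low-affinity adenosine receptor, was not counted in WT_NCD and had 3.44 and 25.1 CPM in the WT_MCD libraries and 3.89 to 16.9 in the KO_MCD libraries. With counting error alone, and 3 counts over the WT_NCD group as its floor, it was at least 195-fold and 125-fold higher. The WT_NCD libraries differed by more than counting error (chi-square per degree of freedom 286), so these bounds may be too high. The edgeR adjusted p was 0.548 and 0.320, and DESeq2 called both (adjusted p = 2.64e-05 and 2.46e-05). In these comparisons DESeq2 called 306 and 562 of all 14784 tested genes. The bounds rest on single libraries, with 49.4-fold without WT_MCD replicate 2, the library with the most macrophage marker RNA, and 66.6-fold without KO_MCD replicate 3. With 1 WT_NCD library left out they were 89.7-fold to 106-fold and 57.2-fold to 67.4-fold, and without WT_MCD replicate 1 the first was 360.1-fold. Ptger4, the EP4 receptor for prostaglandin E, had 108 and 81.5 CPM in WT_NCD and 174 to 231 CPM in all 5 other libraries (log2 fold changes 1.02, SE 0.30, and 1.19, SE 0.28; edgeR adjusted p = 0.712 and 0.326). It was named after its values were seen. Of the 13 receptor genes 9 were tested, 6 higher and 3 lower in WT_MCD than in WT_NCD and 4 higher and 5 lower in KO_MCD than in WT_MCD. Of the 9, 3 had 0 counts in both WT_NCD libraries and could only stand higher in WT_MCD. Gnas, the stimulatory G protein subunit that most cells use, was near 0 (0 to 3.81 CPM). It shares 22% of its exon length with Nespas and Gm20721 on the other strand, so its counts are uncertain. Ptger4 shares 16.5% with Gm15937 and Ttc33, and Adcy3, named below, 22.1% with Cenpo, also on the other strand. Reads there are uncertain in the same way.

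The remaining steps of the pathway gave no gene past the threshold. Without overlap, 20 of 65 tested pathway genes that are no member were higher and 5 lower in WT_MCD against WT_NCD. Of all tested genes 16.8% and 14.8% were. In KO_MCD against WT_MCD these were 7 and 10 (8.37% and 9.66%), and in KO_MCD against WT_NCD 13 and 4 (13.4% and 12.8%). Margins in WT_MCD against WT_NCD were small for Adcy3 (8.14 and 8.18 CPM at the nearest) and Rap1b (92.3 and 92.6). Adcy7 was the adenylyl cyclase with the most counts, at 129 to 198.8 CPM over the libraries. Adcy3 had log2 fold changes of 0.19 (SE 0.89) in WT_MCD against WT_NCD and -0.92 (SE 0.81) in KO_MCD against WT_MCD. The inhibitory subunit gene Gnai3 had 314 ± 39.8 CPM in WT_NCD, 424 ± 30.5 in WT_MCD (SD, n = 2 each) and 295 ± 22.8 in KO_MCD (SD, n = 3), and its log2 fold change of KO_MCD against WT_MCD was -0.52 (SE 0.23). The log2 fold change of Gnal, also a G protein subunit gene, was -2.40 (SE 1.03) in WT_MCD against WT_NCD, and that of Gnai2 was -0.58 (SE 0.32) in KO_MCD against WT_NCD. Among the anchoring proteins that place PKA in the cell, Akap13 had -0.62 (SE 0.34) in WT_MCD against WT_NCD. Akap7 had -1.02 (SE 0.94) in KO_MCD against WT_MCD and -1.64 (SE 0.94) in KO_MCD against WT_NCD. The small GTPase genes Rap1b and Rap1a, which act below the cAMP-activated exchange factors, had log2 fold changes of 0.49 (SE 0.39) for Rap1b in WT_MCD against WT_NCD, -0.22 (SE 0.35) for Rap1b in KO_MCD against WT_MCD, and 0.29 (SE 0.25) for Rap1a in KO_MCD against WT_NCD. Over the 65 tested of 84 pathway genes that are no member, 43 stood higher and 22 lower in WT_MCD than in WT_NCD (median 0.37 beside 0.04 over all tested genes). Of the 65, 8 genes had 0 counts in both WT_NCD libraries and passed the filter only through libraries on the deficient diet. In this comparison they could only stand higher. At an unadjusted p under 0.05 edgeR took 8 of the 65, all higher, against 3.96% of all tested genes on that side. The genes taken at that p can include genes at 0 in WT_NCD. In KO_MCD against WT_MCD 42 stood higher and 23 lower (median 0.16 beside -0.03), and 2 were lower at that p against 2.04% of all tested genes.

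The members differed in pattern. Over the 7 libraries, Creb1 and Prkar1a were the most alike of the 28 pairs, with a root mean square difference of 0.16 on the log2 scale after each gene was centred on its mean. Crem and Pde4b came next at 0.57. Among 8239 other genes that averaged at least 10 CPM, the most like Creb1 was Erbin (0.05), the most like Prkar1a was Sirt2 (0.09), and the most like Pde4b was Clock (0.13). The most like Pde7a was Egr3 (0.17), the most like Crem was the pseudogene Gm9517 (0.20), the most like Prkaca was Epcam (0.28), the most like Pde3b was Nedd4 (0.29), and the most like Pde4d was Ubqln2 (0.38). The median difference from all these genes was 0.53 to 1.35, depending on the member. With 7 libraries and this many genes, a close match is a description of these libraries.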

How the data were processed

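The data are raw read counts per gene as the authors deposited them, with a column for each of 7 libraries and 53465 Ensembl IDs. The submitters' processing notes name HISAT2 2.1.0 as aligner and GRCm38 as build. Which program counted the reads, with which annotation and strand setting, and which kit was used is not stated in any source used here. Symbols, coordinates, exon lengths and GC content came from GENCODE M21 (GRCm38), in which 53360 IDs were found, and promoter windows from RefSeq (GRCm38.p6). Labels gave the groups and replicate numbers.

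The tests used edgeR's quasi-likelihood fit (version 4.0.16, R 4.3.3) on these counts, with TMM factors, a filterByExpr minimum of 10 counts and a mean for each group over all 7 libraries. A gene passed at a Benjamini-Hochberg adjusted p of 0.05 over 14784 genes. Likeness used log2 CPM with a prior count of 2. The common dispersion was 0.833. List medians were the same with genes at 0 in 1 group set at their bound. The members and gene lists were chosen with earlier results of these data known.

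The rule named the 8 members, Nt5e, the most like gene of each member, and per list and comparison the gene that is no member with the smallest p among those that average 5 CPM or more and do not overlap. Adora2a, Prkacb, Pkib, Ptger4, Gnas, Adcy7, Fos, Nr4a1, Dusp1, Rgs2 and Areg were named after their values were seen. Alternatives were other scalings and filters, DESeq2 1.42.0, limma 3.58.1 voom, a replicate block, the 2 groups alone and each library left out. For list counts and the bound of Adora2b, leaving out libraries was chosen after seeing the data. The fit was tested on simulated data.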

Additional observations from a re-analysis of the deposited data

How the results depend on the processing

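No member passed the threshold in any comparison under any alternative run, a crossed block chosen after seeing the data included. The smallest adjusted p of a member was 0.347 (Prkaca, WT_MCD against WT_NCD, DESeq2). Over all genes, leaving out no low counts gave 54 calls in WT_MCD against WT_NCD, 1 in KO_MCD against WT_MCD and 140 in KO_MCD against WT_NCD. DESeq2 gave 306, 35 and 562, and limma voom 0 in each. The cause of these differences was not tested. With total counts alone the median of all genes shifted by 0.11 (log2) in both comparisons with KO_MCD. The sign of Pde3b in WT_MCD against WT_NCD turned with limma voom (0.56) and with the replicate block (0.24), and that of Pde4b in KO_MCD against WT_NCD likewise (0.10 and 0.35).

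Leaving out each library in turn turned signs as follows. In WT_MCD against WT_NCD the log2 fold change ran from -1.78 to 0.31 for Crem, from -0.39 to 0.18 for Creb1, from -0.82 to 1.80 for Pde3b, from -1.02 to 0.88 for Pde4b, from -0.80 to 2.20 for Pde4d, from -0.20 to 1.70 for Pde7a and from -0.20 to 0.39 for Prkar1a. In KO_MCD against WT_MCD it ran from -0.54 to 1.52 for Crem, from -0.55 to 0.047 for Creb1 and from -0.0020 to 0.52 for Pde4b. In KO_MCD against WT_NCD it ran from -0.76 to 0.46 for Crem and from -0.80 to 1.09 for Pde4b. Prkaca kept its sign in all 3 comparisons under every library left out (1.41 to 2.82 in WT_MCD against WT_NCD). A group left with 1 library was assumed to vary like the others.

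Same-numbered libraries did not deviate together (correlations -0.10 to 0.03), so the numbers were not used as pairs. The replicate block on all 7 libraries gave 0 calls in each comparison. Crossing the numbers of the 2 wild type groups gave 0 calls as well.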
